A study of Mus musculus with 12 samples.

Results

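Cells that stably carried the CBL-Y371S mutant were compared with cells that carried the empty vector (EV) by RNA sequencing, and every gene that passed a filter on low levels was described. The comparison used 6 of the 12 libraries of the study, 3 of CBL-Y371S and 3 of EV, which the labels name as its groups. Both groups were NIH-3T3 cells, an immortalized mouse embryo fibroblast line of NIH/Swiss origin, at passages 13 to 17, grown as a monolayer in DMEM with donor bovine serum. In the study's methods, NIH-3T3 cells were infected with packaged viral particles and selected with puromycin. The CBL-Y371S construct was FLAG-tagged in the pBabe Puro retroviral vector. These methods list no empty pBabe Puro vector, so it is taken as given that EV shared the vector and the drug. On that reading the insert, FLAG-tagged CBL-Y371S or none, was what differed. Each group was 1 stably infected line, and nothing in the labels states that its 3 libraries came from separate infections, so a difference between the lines cannot be told apart from a difference between 2 selected cell populations, and a p-value here measures only the spread between libraries. Of 39179 gene identifiers, 15150 averaged 10 or more normalized counts in either line and were tested.

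CBL is a RING-type ubiquitin ligase that binds activated receptor tyrosine kinases, ubiquitinates them and so directs them to the lysosome. The mutated tyrosine lies in the linker helix next to the RING domain, and its substitution, as in Y371S of myelodysplastic and myeloproliferative neoplasms, removes the ligase activity while the tyrosine kinase binding domain and the proline-rich tail, through which CBL binds the adaptor CIN85, are kept. Downstream of such receptors the RAS-ERK cascade induces its own feedback inhibitors, among them the Sprouty proteins and the dual-specificity phosphatases, and the small GTPase CDC42, switched on by guanine nucleotide exchange factors such as FGD4, controls actin and cell polarity.

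Libraries held 20724468 to 29684881 reads in genes, the shallowest being CBL-Y371S replicate 2 and the deepest EV replicate 2. On the log2 scale the EV libraries correlated with each other at r = 0.998 to 0.999 across genes, and CBL-Y371S replicate 2 with the other 2 CBL-Y371S libraries at r = 0.996, against 0.998 between those. EV replicate 3 was at least 3 times the level of both other EV libraries in 35 of the genes tested, and CBL-Y371S replicate 2 lay at least 3 times below both others of its line in 56. CBL-Y371S replicate 3 was at least 3 times the level of both others of its line in 15 genes. Of the 28 genes called at least 4-fold higher in CBL-Y371S, 12 were also at least 3 times as high in EV replicate 3 as in the other EV libraries. By the same measure 1 of the 28 stood out in CBL-Y371S replicate 3. Whether these libraries differed in handling was not tested. Where leaving out 1 library removes the call of a gene named below, this is given beside the gene.

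The targeted gene was examined first. Cbl (ENSMUSG00000034342, chr9:44142976-44234049, minus strand, GRCm38) was measured at 749, 709 and 643 in EV and 1451, 1733 and 1500.1 normalized counts in CBL-Y371S (log2 fold change 1.15 ± 0.06, adjusted p = 5.09e-11), where ± is the standard error of the log2 difference and the adjusted p comes from limma over all genes tested. Every CBL-Y371S library lay above every EV library, by 2.23-fold in the fitted mean. Reads from the construct are in this value only as far as they aligned to the mouse Cbl locus, and the species of the CBL insert is not given in the sources used here. Pseudogenes that resemble Cbl were looked up after the values were seen, and many reads appeared at a pair of processed ones. Gm15272 (chr10:24514279-24514511), a copy of the end of the Cbl coding sequence, had no read in any EV library and 529 reads in CBL-Y371S, at 154, 249.6 and 154 normalized counts, 195-fold the level of the 3 reads over a line that a count of 0 allows. The 95% exact lower limit of the ratio of reads, which covers counting error only, was 154-fold. Gm15272 was picked by these same counts, so this limit is not a test of the rise. Gm6695 (chr6:58091076-58092247), a copy of an upstream stretch of the Cbl transcript, rose from 14.5, 6.88 and 13.9 to 179, 239 and 185. In contrast, the processed pseudogenes Gm16100, Gm16355 and Gm17065, which copy the same end of Cbl, were at 0 reads in all 6 libraries. Gm26701, an unprocessed pseudogene that matches this end too, had 2 reads in CBL-Y371S. Where the reads at Gm15272 and Gm6695 came from was not tested.

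The stretches of Cbl that these pseudogenes copy are shown because these were among the highest rises of the comparison and lie outside the Cbl locus. Lower case marks bases that match and capitals mark bases that differ or are missing in the other sequence, all read 5′ to 3′ from GRCm38. Over the end of the coding sequence, Cbl (chr9:44151445-44151681, minus strand) and Gm15272 (minus strand) differed at 6 bases, with 4 bases of Cbl missing from the pseudogene, an identity of 95.8% over 237 aligned bases.
Cbl: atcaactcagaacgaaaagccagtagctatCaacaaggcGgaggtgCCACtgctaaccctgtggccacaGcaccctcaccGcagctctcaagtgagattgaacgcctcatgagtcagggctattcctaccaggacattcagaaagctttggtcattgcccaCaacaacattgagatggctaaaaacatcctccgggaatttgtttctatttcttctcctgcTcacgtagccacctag
Gm15272: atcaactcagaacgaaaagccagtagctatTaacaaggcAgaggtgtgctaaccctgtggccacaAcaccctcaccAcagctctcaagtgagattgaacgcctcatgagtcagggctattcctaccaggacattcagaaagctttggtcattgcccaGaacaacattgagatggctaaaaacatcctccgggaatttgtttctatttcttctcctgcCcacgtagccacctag
Gm6695 matched Cbl at 94.2% over 968 bases, of which 150 bases of coding sequence (chr9:44201058-44201207, minus strand) and their counterpart (chr6:58091382-58091531, plus strand) are shown, with 6 differences.
Cbl: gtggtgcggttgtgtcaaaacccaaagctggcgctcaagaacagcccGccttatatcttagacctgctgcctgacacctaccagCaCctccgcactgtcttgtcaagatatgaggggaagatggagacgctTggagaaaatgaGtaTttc
Gm6695: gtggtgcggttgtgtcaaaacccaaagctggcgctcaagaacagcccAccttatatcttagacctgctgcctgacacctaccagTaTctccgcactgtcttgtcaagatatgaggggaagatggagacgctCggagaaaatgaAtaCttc

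Across the transcriptome most differences between the lines were small. At an adjusted p under 0.05, 9415 of the 15150 genes (62.1%) were called, 4687 higher in CBL-Y371S (30.9%) and 4728 lower (31.2%). The median log2 fold change of all genes was 0.01, and 9 in 10 genes lay between -0.77 and 0.54. Of the called genes, 4647 differed by less than 1.25-fold, 1761 by at least 1.5-fold (470 up and 1291 down), 512 by at least 2-fold (159 up and 353 down) and 50 by at least 4-fold (28 up and 22 down). In 5026 genes the 3 CBL-Y371S libraries all lay above the 3 EV libraries, and in 5048 all below. Leaving out any 1 library kept between 8553 and 8831 of the 9415 calls, and 468 to 492 of the 512 at 2-fold or more, with no change of sign among them.

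**Figure D1:**
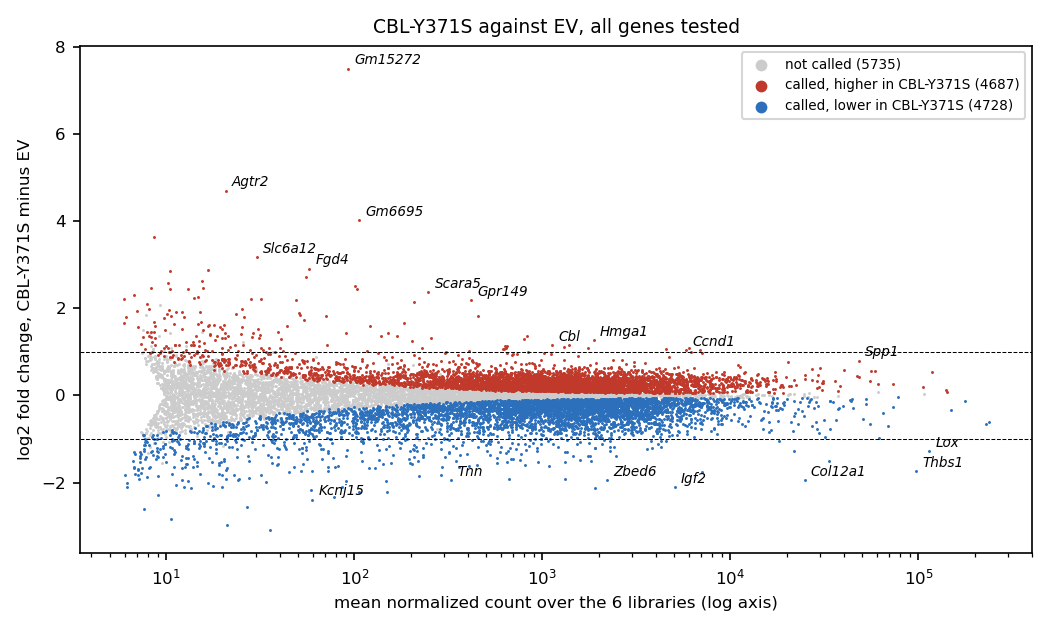
Each point is 1 of the 15150 genes tested, with the mean normalized count over the 6 libraries on a log axis and the log2 fold change, CBL-Y371S minus EV, on the vertical axis; dashed lines mark 2-fold. Called genes lie on both sides of 0 (4687 above, 4728 below), with Gm15272, Agtr2 and Gm6695 the highest of the labelled genes and abundant matrix genes such as Thbs1, Lox and Col12a1 below 0.

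The direction of change moved with exon length. In the fifth of genes with the shortest exons (57 to 1602 bases) 1109 rose and 271 fell, and in the fifth with the longest (6957 bases and more) 385 rose and 1922 fell, with median log2 fold changes of 0.21 and -0.24. Across genes Spearman's rank correlation between log2 fold change and exon length was -0.38 over 14981 genes, and -0.52 over the 11174 genes averaging 100 or more, and that with GC content was 0.30. Genes of 1 sample are not independent replicates, so these are descriptions. When the smooth trend over length and GC was taken out, 4906 genes (32.7%) were called up and 3766 (25.1%) down, a split in which rises outnumbered falls, and the median was 0.03. What set the trend (RNA integrity, library preparation or the cells) cannot be told apart here, so values with the trend removed are given beside each gene or list that it moved by over 1.5 times, changed in direction or took across the threshold.

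**Figure D2:**
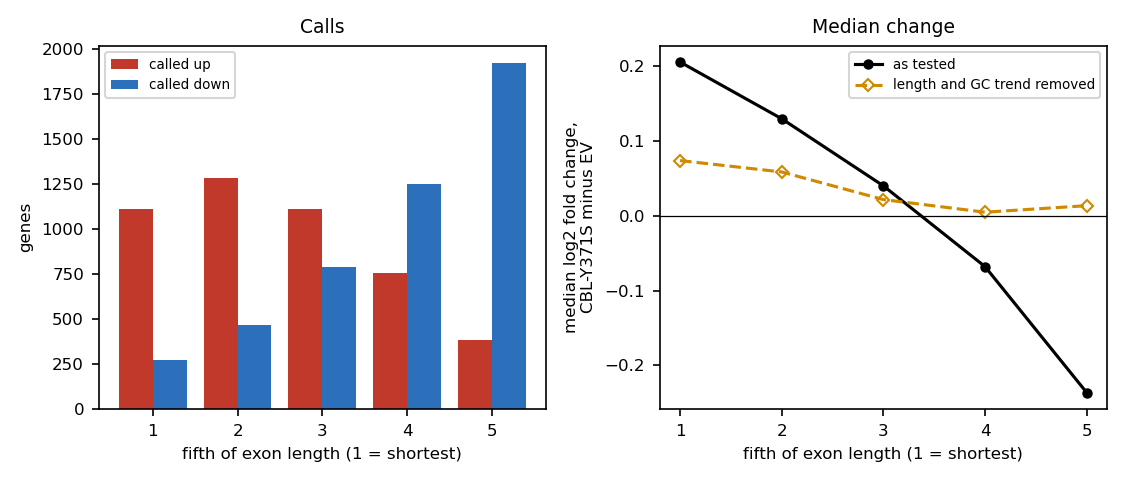
Genes tested were ranked by summed exon length and divided into 5 equal bins, from the shortest (1) to the longest (5): the left panel counts genes called up and down per bin, the right panel gives the median log2 fold change as tested and with the length and GC trend removed. As tested, the median goes from 0.21 to -0.24, and with the trend removed it lies between 0.00 and 0.07.

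Among the strongest rises were a transporter, an exchange factor for CDC42, receptors and adaptor proteins of blood cells. Slc6a12, which encodes the betaine and GABA transporter of the cell membrane, was measured at 7.23, 6.02 and 2.97 in EV and 46.7, 63.6 and 54.9 normalized counts in CBL-Y371S (log2 fold change 3.18 ± 0.30, adjusted p = 6.72e-08). Fgd4 (ENSMUSG00000022788, chr16:16416917-16600549, minus strand), whose product loads CDC42 with GTP, was at 15.5, 9.46 and 13.9 in EV and 99.4, 108 and 99.5 in CBL-Y371S (log2 fold change 2.91 ± 0.20, adjusted p = 1.48e-09). Slc14a1, a urea transporter, was at 28.9, 18.9 and 44.5 in EV and 174, 167 and 175 in CBL-Y371S (log2 fold change 2.52 ± 0.21, adjusted p = 1.87e-08). All 3 CBL-Y371S libraries lay several times above the highest EV library for each of these genes. Upp1, the uridine phosphorylase that salvages ribose from uridine, was at 24.8, 31.0 and 38.6 in EV and 150.1, 168 and 206 in CBL-Y371S (log2 fold change 2.45 ± 0.17, adjusted p = 1.27e-09). Scara5, a ferritin receptor, stood at 84.7, 80.9 and 72.3 in EV and 396, 443 and 409 in CBL-Y371S, and Gpr149, an orphan G-protein coupled receptor, at 144, 163 and 145 in EV and 715, 689 and 657 in CBL-Y371S. The gap between the lines was many times the spread within them for both (log2 fold changes 2.38 for Scara5 and 2.18 for Gpr149). Btc, which encodes the EGF receptor ligand betacellulin, rose from 16.5, 18.9 and 14.9 to 64.6, 87.6 and 90.2 (log2 fold change 2.19 ± 0.20, adjusted p = 3.71e-08). Cytip and Fyb encode adaptor proteins best known in lymphocytes, and both rose, with log2 fold changes of 2.15 and 1.90. Further rises were seen for the R-spondin receptor Lgr6 (1.84), the kallikrein protease Klk10 (1.83), the exchange factor Ngef (1.82), the teneurin Tenm4 (1.67), Exoc3l2 (2.21) and Proser2 (1.60), all as log2 fold changes. These 15 genes, the highest among those averaging 50 or more in either line, were also called by edgeR, by DESeq2, with the trend removed and without any 1 library.

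The strongest falls included smooth muscle, growth factor and matrix genes. Kcnj15, an inwardly rectifying potassium channel, was at 109, 97.2 and 97.0 in EV and 20.9, 17.998 and 16.7 normalized counts in CBL-Y371S (log2 fold change -2.39 ± 0.17, adjusted p = 2.04e-09). Actg2, the smooth muscle gamma actin, was at 102, 125 and 167 in EV and 24.8, 20.4 and 29.8 in CBL-Y371S (log2 fold change -2.33 ± 0.19, adjusted p = 1.16e-08). In both, no CBL-Y371S library came within 3-fold of the EV libraries. Igf2 (ENSMUSG00000048583, chr7:142650766-142666816, minus strand), the imprinted fetal growth factor that signals through the IGF1 receptor, was among the abundant genes of EV and was at 8285, 8323 and 8066 in EV and 1872, 1941 and 1900.0 in CBL-Y371S (log2 fold change -2.11 ± 0.03, adjusted p = 4.33e-19). Without strand information its reads cannot be separated from those of an antisense transcript at the same locus. Zbed6, a transcription factor gene that lies within Zc3h11a and is known in mammals as a repressor of Igf2, fell as well, from 3571, 3381 and 3531 to 928, 874 and 924 (log2 fold change -1.94 ± 0.03, adjusted p = 7.76e-17), with the same limit for reads of its host gene. Col12a1 (ENSMUSG00000032332, chr9:79598991-79718831, minus strand), a fibril-associated collagen, was at 39598, 39855 and 38599 in EV and 10249, 10345 and 10224 in CBL-Y371S (log2 fold change -1.94 ± 0.02, adjusted p = 1.16e-19). Tnn, which encodes the matricellular tenascin-N, was at 463, 576 and 529.6 in EV and 129, 136 and 138 in CBL-Y371S (log2 fold change -1.95 ± 0.08, adjusted p = 2.72e-12). The 3 CBL-Y371S libraries of Col12a1 differed from each other by far less than from EV, and so did those of Tnn. The unconventional myosin Myo7a (-2.21), the FERM domain gene Frmd5 (-2.22), the centrosomal Cep85l (-2.16), Klhl30 (-2.09), the calpain subunit Capns2 (-1.99), the metalloprotease Adamts16 (-1.97), the tetraspanin Tspan33 (-1.96), the zinc-finger gene Zfp871 (-1.92) and the aminopeptidase Lnpep (-1.91) completed the 15 lowest log2 fold changes, and these 15 too were called by edgeR, by DESeq2, with the trend removed and without any 1 library.

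**Figure D3:**
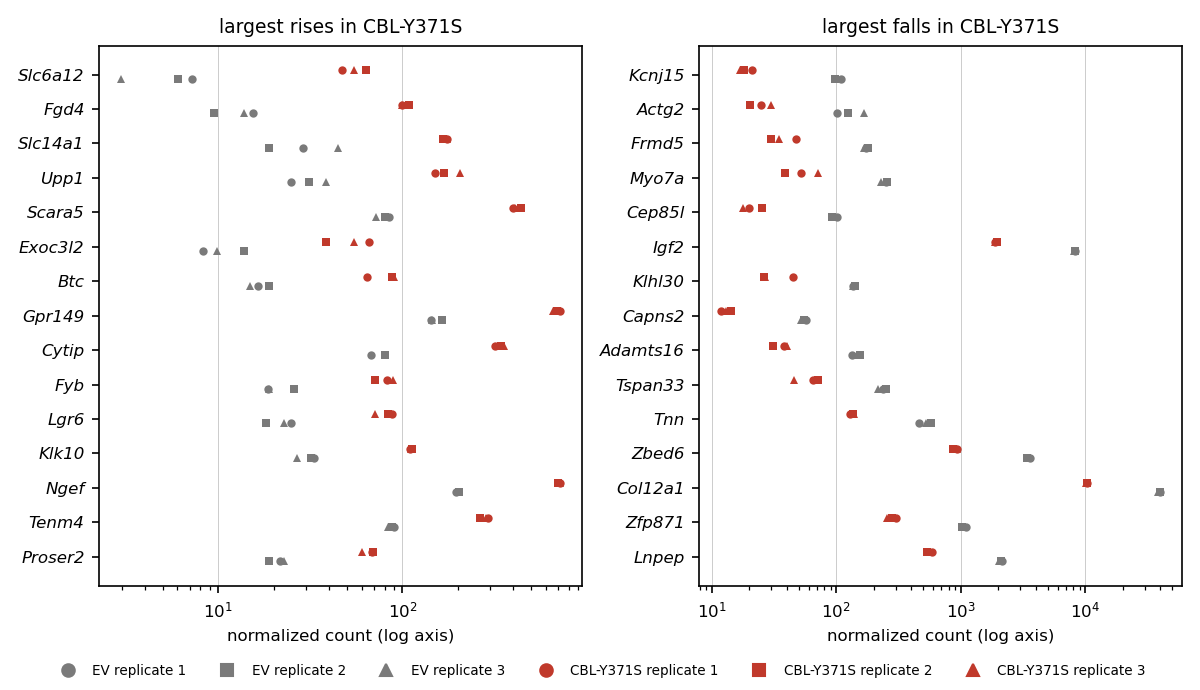
Normalized counts of the 15 genes with the highest and the 15 with the lowest log2 fold changes among called genes averaging 50 or more in either line, 1 point per library, on a log axis. In every gene the 3 CBL-Y371S points and the 3 EV points do not overlap, from Slc6a12 (2.97 to 7.23 in EV, 46.7 to 63.6 in CBL-Y371S) to Kcnj15 (97.0 to 109 in EV, 16.7 to 20.9 in CBL-Y371S).

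Beside Gm15272, 4 genes with an established name were at 3 reads or fewer over the EV line and above the filter in CBL-Y371S, and none the other way. Agtr2, the angiotensin II type 2 receptor, was at 0, 0 and 2.97 in EV and 38.8, 44.4 and 38.1 normalized counts in CBL-Y371S, 42.0 times higher (95% exact interval of the ratio of reads 14.0 to 207, counting error only). Ltf, the iron-binding secreted protein lactoferrin, was at 0, 0 and 0.990 in EV and 5.96, 21.6 and 23.2 in CBL-Y371S, 52.8 times higher (interval 9.04 to 2127). Both lay above EV in all 3 CBL-Y371S libraries. The rule that picked Agtr2 and Ltf used these same counts, so a high ratio was fixed by it and the intervals are not a test. Other scarce genes with a large rise, given next, had a level in EV replicate 3 well above the other EV libraries. In these genes CBL-Y371S replicate 3 was likewise the highest of its line, and whether the same-numbered libraries shared a cause was not tested. Ido1, an enzyme that degrades tryptophan, was at 0, 0.860 and 5.94 in EV and 11.9, 9.60 and 34.4 in CBL-Y371S (log2 fold change 2.85 ± 0.63, adjusted p = 8.54e-04), and Igfbp5, an IGF-binding protein, was at 5.16, 6.02 and 29.7 in EV and 97.4, 21.6 and 174 in CBL-Y371S (log2 fold change 2.73 ± 0.61, adjusted p = 8.31e-04), where the lines overlapped. Fam84a (2.87), Npy (2.64) and Prr9 (2.45) showed the same libraries apart, and DESeq2 called none of these 3 (adjusted p = 0.164, 0.157 and 0.506). Prr9 was not called by edgeR either, nor without EV replicate 1 or EV replicate 2 (adjusted p up to 0.0856). Col9a1, a cartilage collagen, had 39 reads and Nme2 (ENSMUSG00000091228), a nucleoside diphosphate kinase that shares its symbol with a second identifier, had 45, nearly all of them in CBL-Y371S replicate 2, and neither was called (adjusted p = 0.175 and 0.0843).

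The changes were then read by pathway, in 46 gene lists, which with 6 lists of cell type markers held 1921 of the genes tested. The lists were chosen with earlier results of these data known, so their counts are descriptions and not tests. Each list is described by how many members were called up or down and by the median of its members, to be set against 30.9%, 31.2% and 0.01 over all genes. Where list values with the trend removed are given, they are to be set against 32.7%, 25.1% and 0.03. Parentheses after a gene give its log2 fold change ± standard error, and the adjusted p for the weaker calls. The members given with values are the 2 highest and 2 lowest called members of each list, and any others were chosen after their values were seen. The lists' medians lay above 0 in 20 lists and below it in 26, and 3 of them changed sign when the length and GC trend was removed.

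**Figure D4:**
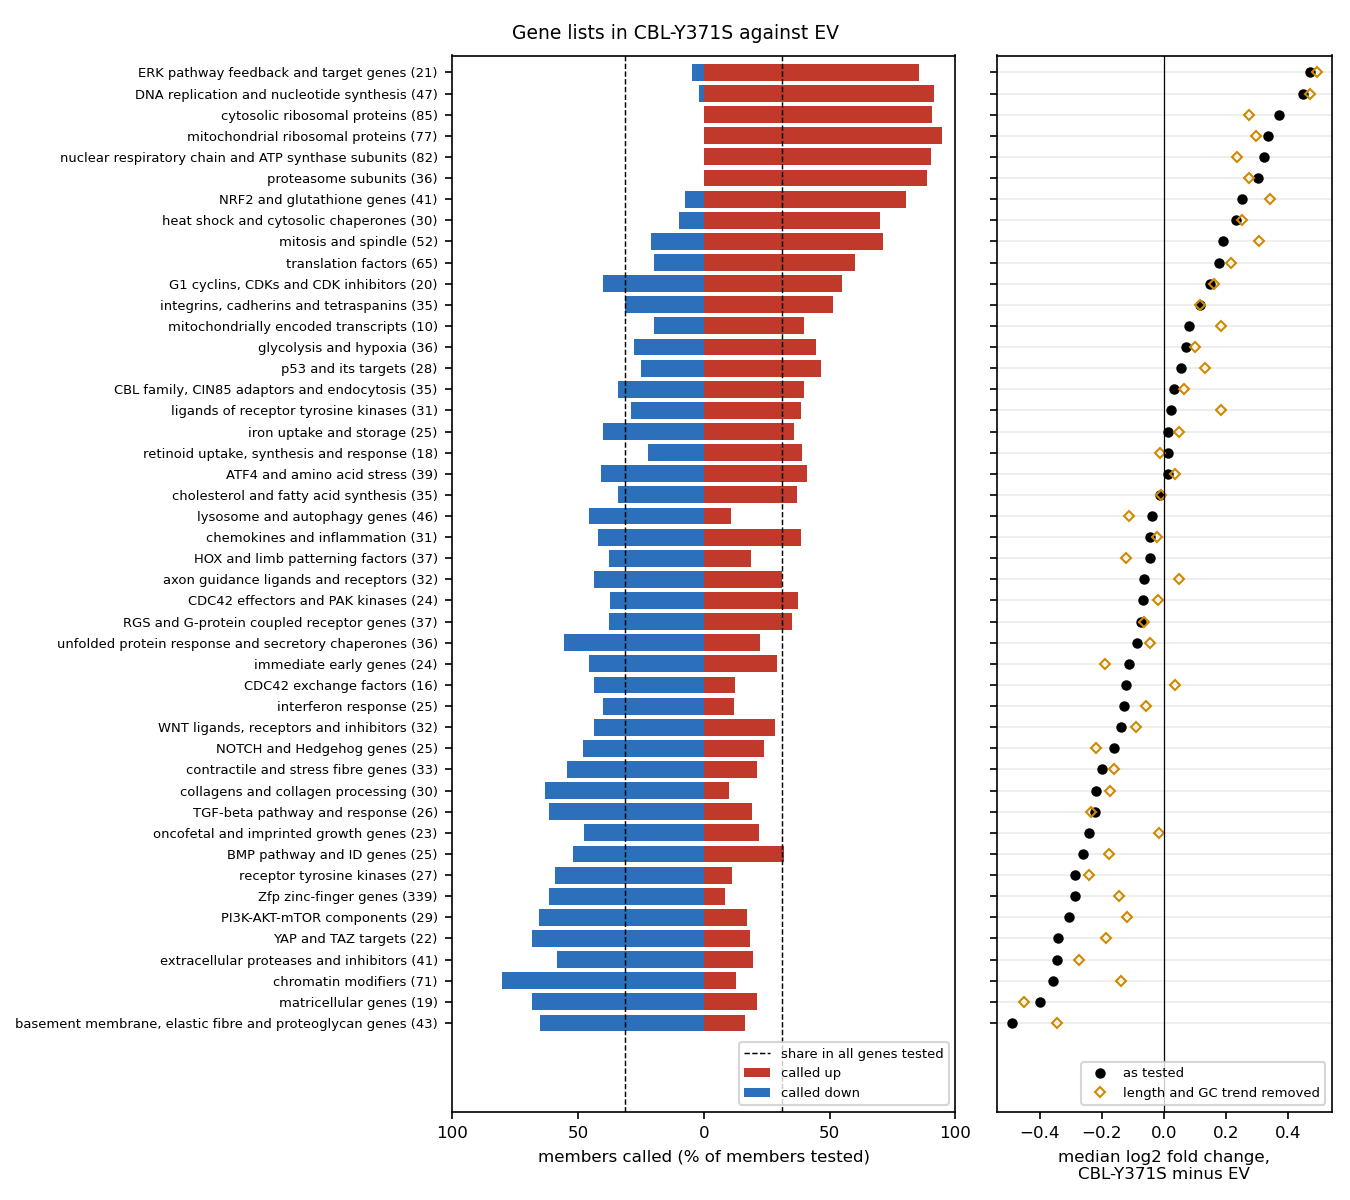
Left, share of the members tested that were called up (red, to the right) and down (blue, to the left) in each of the 46 lists, with the number tested in parentheses and dashed lines at the shares over all genes (30.9% and 31.2%). Right, the median log2 fold change of each list as tested (filled) and with the trend removed (open), from 0.47 for ERK feedback genes to -0.49 for basement membrane genes.

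Most of the listed targets and feedback inhibitors of ERK signalling stood higher in CBL-Y371S. Immediate early genes, some of which ERK also induces, form a separate list that is described next and did not follow. Of 21 members tested, 18 rose and 1 fell, with a median log2 fold change of 0.47. Etv4 and Etv5, transcription factors of the PEA3 group that ERK signalling induces, were at 465, 457 and 455 in EV and 1134, 1136 and 1122 normalized counts in CBL-Y371S (1.30 ± 0.04) and at 386, 419 and 425 in EV and 890.4, 854 and 865 in CBL-Y371S (1.08 ± 0.05). Neither overlapped between the lines. Among the inhibitors of the cascade, Spry2 was at 249, 255 and 234 in EV and 476, 391 and 415 in CBL-Y371S (0.79 ± 0.08). Spry4 was at 313, 261 and 260.3 in EV and 444, 475 and 460.3 in CBL-Y371S (0.73 ± 0.07), both without overlap. The phosphatase genes Dusp4 (0.68), Dusp5 (0.72), Dusp6 (0.68) and Dusp7 (0.21, 0.08 with the trend removed) rose too, of which Dusp6, specific for ERK in the cytoplasm, was at 1084, 1069 and 1141 in EV and 1729, 1790.2 and 1746 in CBL-Y371S. Fosl1, the AP-1 subunit whose protein ERK stabilizes, was at 1864, 1942 and 1935 in EV and 3452, 3352 and 3279 in CBL-Y371S (0.81 ± 0.03). Ccnd1, which encodes cyclin D1 and links mitogens to cell division, was at 3662, 3915 and 3800.2 in EV and 7853, 7637 and 7937 in CBL-Y371S (1.04 ± 0.03). Not all inhibitors behaved alike: Spry1 (-0.07, adjusted p = 0.472, or -0.20 with the trend removed) and Spred2 (-0.08, adjusted p = 0.104) did not pass the test, and Spred1 was at 3426, 3131 and 3297 in EV and 3101, 3100.4 and 3133 in CBL-Y371S (-0.08 ± 0.03, or 0.18 with the trend removed, adjusted p = 0.0385), where it was not called without CBL-Y371S replicate 1, CBL-Y371S replicate 2, CBL-Y371S replicate 3, EV replicate 1 or EV replicate 3 (adjusted p up to 0.234) and by DESeq2 (adjusted p = 0.0696).

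Immediate early genes, which serum and growth factors switch on within minutes, were called lower more often than higher. Of 24 tested, 7 rose and 11 fell, with a median log2 fold change of -0.11 (5 and 12 with the trend removed, median -0.19). Nr4a3, Nr4a2 and Nr4a1 are related orphan nuclear receptors, and Nr4a3 was at 377, 353 and 441 in EV and 178, 214 and 164 normalized counts in CBL-Y371S (-1.08 ± 0.10). Nr4a2 was at 779, 810.3 and 760.2 in EV and 553, 533 and 561 in CBL-Y371S (-0.51 ± 0.05). The 2 lines did not overlap in either gene. Junb (-0.23, -0.36 with the trend removed) fell, and so did Fos (-0.40), although Fos was not called without CBL-Y371S replicate 1, CBL-Y371S replicate 3, EV replicate 1 or EV replicate 2 (adjusted p up to 0.121) and by DESeq2 (adjusted p = 0.0776). Ier2 was called in the other direction, at 1029, 1007 and 1039 in EV and 1366, 1379.8 and 1380.1 in CBL-Y371S (0.42 ± 0.03, or 0.24 with the trend removed). The pluripotency-associated factor Klf4 was at 2528, 2333 and 2469 in EV and 3254, 3200.0 and 3249 in CBL-Y371S (0.41 ± 0.03) and also rose. Egr1, a zinc-finger factor directly induced through ERK, overlapped between the lines at 1519, 1340.1 and 1397 in EV and 1350.5, 1401 and 1293 in CBL-Y371S (-0.07 ± 0.04, or -0.17 with the trend removed, adjusted p = 0.168). Erf, a repressor of ETS targets that ERK removes from the nucleus, was at 2513, 2555 and 2442 in EV and 2790.4, 2808 and 2708 in CBL-Y371S (0.15 ± 0.03, or 0.02 with the trend removed), and Erf was not called with the trend removed (adjusted p = 0.458).

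Receptor tyrosine kinases, the class of receptor that CBL ubiquitinates, had mostly lower transcript levels in the mutant line. Of 27 receptor tyrosine kinases, 3 rose and 16 fell, with a median log2 fold change of -0.29. The platelet-derived growth factor receptors are the main mitogen receptors of fibroblasts, and Pdgfra was at 34624, 34590.2 and 34167 in EV and 22613, 22686 and 22765 normalized counts in CBL-Y371S (-0.60 ± 0.02, or -0.35 with the trend removed). Pdgfrb was at 7708, 7705 and 7449.9 in EV and 5334, 5333 and 5274 in CBL-Y371S (-0.52 ± 0.02). Egfr, the classical CBL substrate, was at 929.6, 963 and 877 in EV and 647, 590.3 and 581 in CBL-Y371S (-0.61 ± 0.05, or -0.27 with the trend removed). In these 3 genes every CBL-Y371S library lay below every EV library. The ephrin receptor gene Epha4 had the lowest value, at 731, 768 and 750.3 in EV and 398, 413 and 365 in CBL-Y371S (-0.93 ± 0.05). The insulin receptor Insr was at 1754, 1789 and 1844 in EV and 1058, 1105 and 1036 in CBL-Y371S (-0.75 ± 0.04, or -0.41 with the trend removed). Igf1r (-0.45, -0.10 with the trend removed), Fgfr1 (-0.18, -0.05 with the trend removed) and Met (-0.17, 0.05 with the trend removed) fell less, and Met was not called with the trend removed (adjusted p = 0.185). A rise was seen for Flt1, a VEGF receptor gene at low level (18.6, 23.2 and 32.7 in EV and 48.7, 36.0 and 67.0 in CBL-Y371S) (0.99 ± 0.25, adjusted p = 0.0022). Epha2, itself an ERK target, was at 1465, 1449 and 1348 in EV and 1907, 2004 and 1986 in CBL-Y371S (0.47 ± 0.04).

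Ligands of these receptors changed in both directions, with 4 ligands of the epidermal growth factor (EGF) receptor higher and Hgf, Igf1, Igf2 and Vegfa lower. Of 31 tested, 12 rose and 9 fell, with a median log2 fold change of 0.02 (14 and 8 with the trend removed, median 0.18). Beside Btc, the EGF receptor ligands Areg (11.4, 17.2 and 11.9 in EV and 26.8, 27.6 and 36.3 in CBL-Y371S), Hbegf (182, 178 and 191 in EV and 281, 271 and 257 in CBL-Y371S) and Ereg (692, 596 and 660.3 in EV and 929, 965 and 885 in CBL-Y371S) rose, by log2 fold changes of 1.12, 0.55 and 0.51. Midkine, the heparin-binding factor encoded by Mdk, was at 4.13, 10.3 and 3.96 in EV and 19.9, 15.6 and 18.6 in CBL-Y371S (1.52 ± 0.37, adjusted p = 0.00175). Hgf, the ligand of Met, was at 5031, 5067 and 5040.5 in EV and 2175, 2145 and 2151 in CBL-Y371S (-1.23 ± 0.02). Igf1 was at 84.7, 105 and 99.98 in EV and 46.7, 56.4 and 53.9 in CBL-Y371S (-0.87 ± 0.14, or -0.45 with the trend removed). Neither overlapped between lines. Vegfa, the main growth factor of blood vessels, was at 5368, 5406 and 5276 in EV and 3042, 2939.7 and 3126 in CBL-Y371S (-0.82 ± 0.03). Fgf21, an endocrine FGF induced by stress, was at 23.8, 25.8 and 19.8 in EV and 7.95, 8.40 and 10.2 in CBL-Y371S (-1.29 ± 0.28). Fgf1 was near the detection limit, at 1.03, 2.58 and 1.98 in EV and 5.96, 3.60 and 20.5 in CBL-Y371S (1.66 ± 0.57, adjusted p = 0.0182), and it was not called without CBL-Y371S replicate 3 or EV replicate 1 (adjusted p up to 0.183).

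**Figure D5:**
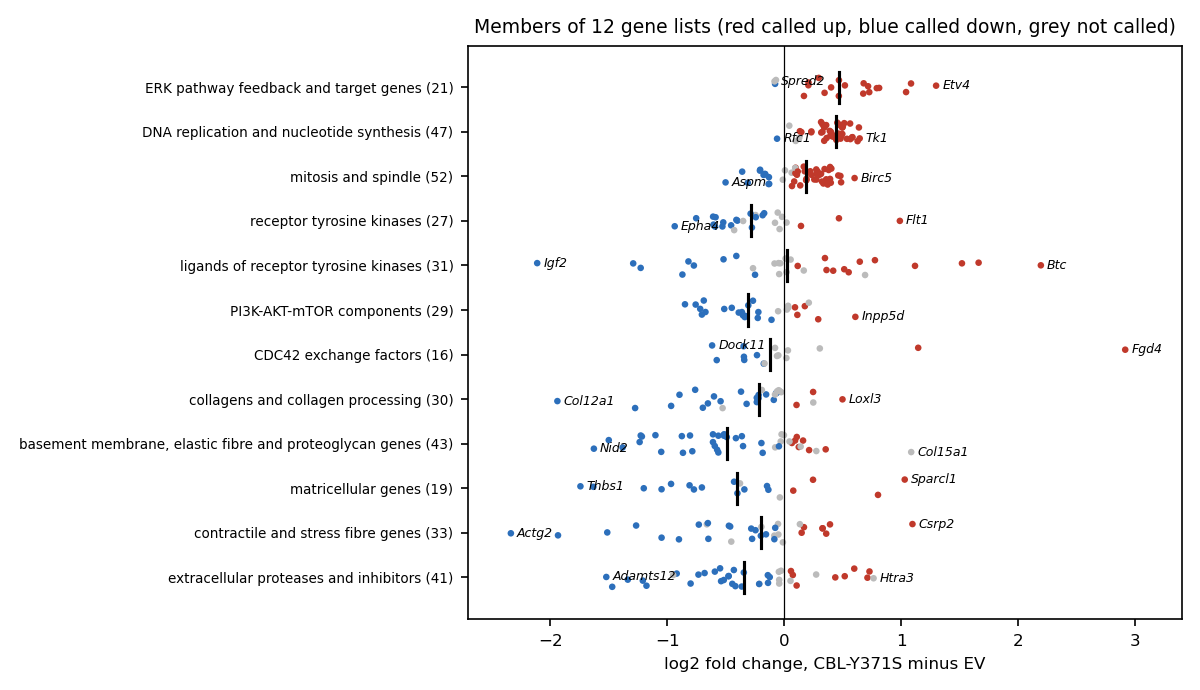
Log2 fold change, CBL-Y371S minus EV, of every tested member of 12 lists, 1 point per gene with the list's median as a line. Members of the ERK and DNA replication lists lie almost wholly above 0 (18 of 21 and 43 of 47 called higher), while receptor tyrosine kinases and the matrix lists lie mostly below it.

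Sh3kbp1, which encodes CIN85, the adaptor that the study places downstream of mutant CBL, was higher in CBL-Y371S. It was at 4474, 4369.6 and 4475 in EV and 5633, 5637 and 5582 normalized counts in CBL-Y371S (0.34 ± 0.02, or 0.66 with the trend removed). Its paralogue Cd2ap was lower, at 1931, 1820.1 and 1949 in EV and 1448, 1442 and 1529 in CBL-Y371S (-0.37 ± 0.04, or 0.15 with the trend removed). Cblb, the closest relative of Cbl, was at 1016, 1004 and 1019.6 in EV and 867, 899.9 and 905 in CBL-Y371S (-0.19 ± 0.04, or 0.10 with the trend removed), a fall that turned into a rise with the trend removed. Of the 35 genes for CBL proteins, adaptors and clathrin-dependent uptake, 14 rose and 12 fell, with a median log2 fold change of 0.03 (16 and 6 with the trend removed, median 0.06). The clathrin light chain Cltb was at 855, 843 and 913 in EV and 1169.6, 1159 and 1067 in CBL-Y371S (0.38 ± 0.05), whereas the heavy chain Cltc was at 17169, 17199 and 17639 in EV and 11864, 11689 and 11863 in CBL-Y371S (-0.55 ± 0.02, or -0.28 with the trend removed). Rab5a, the GTPase of early endosomes, was at 1508, 1462 and 1473 in EV and 1072, 1044 and 1109 in CBL-Y371S (-0.46 ± 0.04). Grb2, the adaptor that joins CBL to receptors, rose by 0.14 on the log2 scale, or 0.08 with the trend removed.

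Exchange factors of CDC42 did not move as a group. Of 16 tested, 2 rose and 7 fell, with a median log2 fold change of -0.12 (6 and 4 with the trend removed, median 0.03). Fgd4 and Dock8 were the pair that rose, with Dock8, best known in lymphocyte migration, at 392.5, 392.2 and 396 in EV and 868, 896 and 853 normalized counts in CBL-Y371S (1.15 ± 0.05). Dock11 was at 1915, 1909.5 and 1965 in EV and 1234, 1327 and 1219 in CBL-Y371S (-0.62 ± 0.04, or -0.28 with the trend removed). Itsn2, an intersectin that also scaffolds endocytosis, was at 1339.6, 1307 and 1272 in EV and 897, 869 and 862 in CBL-Y371S (-0.58 ± 0.04, or -0.25 with the trend removed). In all 4 genes the lines were apart. Cdc42 itself differed little, at 7086, 6868 and 7116 in EV and 7279, 7731 and 7497 in CBL-Y371S (0.09 ± 0.03, or 0.17 with the trend removed, adjusted p = 0.00376), although the lowest CBL-Y371S library was above the highest EV library. Among 24 effectors and PAK kinases, 9 rose and 9 fell, with a median log2 fold change of -0.07 (10 and 6 with the trend removed, median -0.02). Pak1, a kinase that CDC42 and RAC activate, was at 1089, 1116 and 1158 in EV and 1496, 1634 and 1563 in CBL-Y371S (0.48 ± 0.04). The Borg protein gene Cdc42ep1 was at 925, 981 and 915 in EV and 1277, 1195 and 1229 in CBL-Y371S (0.39 ± 0.04, or 0.24 with the trend removed). The PAK gene Pak3 was lower, at 5329, 5162 and 5302 in EV and 2905, 2840.1 and 2874 in CBL-Y371S (-0.87 ± 0.02, or -0.49 with the trend removed). Cdc42ep3 was at 2275, 2288 and 2363 in EV and 1486, 1429 and 1442 in CBL-Y371S (-0.67 ± 0.03) and lower as well.

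Components of PI3K, AKT and mTOR signalling, which runs from the same receptors, were mostly lower. Of 29 tested, 5 rose and 19 fell, with a median log2 fold change of -0.31 (9 and 16 with the trend removed, median -0.12). Irs2, an adaptor of the insulin and IGF1 receptors, was at 1354, 1394 and 1278 in EV and 821, 781 and 780.3 normalized counts in CBL-Y371S (-0.76 ± 0.04). Rictor, the defining subunit of mTORC2, was at 1748, 1763 and 1764 in EV and 1021, 1100.3 and 1122 in CBL-Y371S (-0.70 ± 0.04, or -0.25 with the trend removed). Akt1 was at 7927, 8159 and 7861 in EV and 9717, 9788 and 9802 in CBL-Y371S (0.29 ± 0.02, or 0.18 with the trend removed). Inpp5d, a phosphatase mainly of blood cells, was at 53.7, 52.5 and 49.5 in EV and 71.5, 85.2 and 82.8 in CBL-Y371S (0.61 ± 0.14, adjusted p = 0.0012). The 2 genes named that fell and the 2 that rose were each apart between lines.

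Extracellular matrix genes, which make up much of a fibroblast's transcriptome, were lower in CBL-Y371S. Of 30 collagens and collagen-processing enzymes, 3 rose and 19 fell, with a median log2 fold change of -0.22. Lox, which cross-links collagen and elastin, was at 164037, 156638 and 164250.4 in EV and 66136, 67018 and 67448 in CBL-Y371S (-1.27 ± 0.02). Col1a1 was at 279712, 288174 and 269091 in EV and 177498, 185109 and 170373 in CBL-Y371S (-0.65 ± 0.03). Col3a1 was at 85240.1, 86868 and 84479.7 in EV and 51835, 56020.4 and 50829.9 in CBL-Y371S (-0.69 ± 0.03). These are the fibrillar collagens of connective tissue, and no library of one line reached the range of the other. Col1a2 (-0.60) and Col5a2 (-0.97) fell too. Loxl3, a relative of Lox, was higher, at 2249.5, 2308 and 2287 in EV and 3323, 3072 and 3283 in CBL-Y371S (0.50 ± 0.03). The lysyl hydroxylase gene Plod3 was higher too, at 7965, 8060.5 and 7761 in EV and 9372, 9626 and 9249 in CBL-Y371S (0.25 ± 0.02, or 0.15 with the trend removed). Basement membrane, elastic fibre and proteoglycan genes had the lowest median of the 46 lists as tested, while with the trend removed that of the matricellular list was lower (-0.45 against -0.35): of 43, 7 rose and 28 fell, with a median log2 fold change of -0.49. Nid2, a basement membrane linker, was at 1661, 1707 and 1552 in EV and 570.4, 516 and 507 in CBL-Y371S (-1.63 ± 0.05). The laminin chain gene Lama2 was at 39.2, 33.5 and 50.5 in EV and 11.9, 19.2 and 11.2 in CBL-Y371S (-1.50 ± 0.26). Fbn1 (-0.80), which encodes fibrillin, and Has2 (-1.22), the hyaluronan synthase, also fell. Gpc1 (0.36), a glypican, and Efemp1 (0.21), a fibulin, were the called members that rose most. Col15a1 had a positive value that did not pass the test (1.09, adjusted p = 0.0962).

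Matricellular genes, whose secreted products modulate contact between cells and matrix, were mostly lower: of 19, 4 rose and 13 fell, with a median log2 fold change of -0.40. Thbs1, the thrombospondin that activates latent TGF-beta, was at 149581, 150166 and 148403 in EV and 44604, 44316 and 45196 normalized counts in CBL-Y371S (-1.74 ± 0.02). Postn, which encodes periostin, was at 141, 114 and 117 in EV and 31.8, 37.2 and 51.1 in CBL-Y371S (-1.63 ± 0.17). Spp1, which encodes osteopontin and is abundant in both lines, was at 34646, 34899.8 and 35779 in EV and 59191, 64335 and 60253 in CBL-Y371S (0.80 ± 0.03), and Sparcl1 was at 229, 255 and 317 in EV and 575, 484 and 570.1 in CBL-Y371S (1.03 ± 0.10). Extracellular proteases and their inhibitors were lower in 24 of 41 members and higher in 8, with a median of -0.34. Adamts12 and Adamts6 are proteases of the aggrecanase family, and Adamts12 was at 937, 1024 and 932 in EV and 359, 330.0 and 319 in CBL-Y371S (-1.52 ± 0.06). Adamts6 was at 291, 285 and 289 in EV and 97.4, 99.6 and 114 in CBL-Y371S (-1.47 ± 0.09). The membrane-anchored proteases Adam12 (-1.34) and Mmp14 (-0.68) fell as well. Plaur, the urokinase receptor and an ERK-responsive gene, was at 703, 655 and 686 in EV and 1161, 1109 and 1121 in CBL-Y371S (0.73 ± 0.04). Htra1 overlapped between lines, at 82.6, 93.8 and 194 in EV and 153, 174 and 251 in CBL-Y371S (0.71 ± 0.23, adjusted p = 0.0143), and it was not called without CBL-Y371S replicate 3, EV replicate 1 or EV replicate 2 (adjusted p up to 0.107), by DESeq2 (adjusted p = 0.228) and with the trend removed (adjusted p = 0.052).

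Genes of the contractile apparatus were called lower more often than higher. Of 33 tested, 7 rose and 18 fell, with a median log2 fold change of -0.20. Beside Actg2, the smooth muscle actin gene Acta2 was lower, at 2678, 2648 and 2683 in EV and 1422, 1428 and 1444 normalized counts in CBL-Y371S (-0.90 ± 0.03). Tagln, which encodes transgelin, was at 1317, 1289 and 1369 in EV and 539, 541 and 573 in CBL-Y371S (-1.26 ± 0.04). Lmod1, an actin nucleator of smooth muscle, was at 37.2, 42.1 and 35.6 in EV and 8.94, 15.6 and 5.58 in CBL-Y371S (-1.93 ± 0.31). All 3 lay below EV without overlap. Myl9, the regulatory light chain of myosin, was at 155, 145 and 190.1 in EV and 59.6, 52.8 and 56.7 in CBL-Y371S (-1.51 ± 0.13). Vcl, which encodes vinculin of focal adhesions, was at 4935, 5039.6 and 4931 in EV and 3123, 3216 and 3149 in CBL-Y371S (-0.65 ± 0.02). Csrp2, a LIM protein, was at 1064, 1102 and 1172 in EV and 2325, 2541 and 2278 in CBL-Y371S (1.10 ± 0.04). The tropomyosin gene Tpm3 was at 3386, 3334 and 3323 in EV and 4316, 4394 and 4471 in CBL-Y371S (0.39 ± 0.02).

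Serum response factor (SRF) binds the CArG box, and because contractile and immediate early genes are known SRF targets, the 250 bases before the annotated start of each gene were searched for it. The box was spelled as CC, 6 bases of A or T and GG, which reads the same way on both strands. In RefSeq promoters (GRCm38.p6, 27025 genes, of which 9762 were tested) it occurred in 5 of 28 contractile genes (17.9%), against 1.38% of tested genes and 1.62% of all promoters. Of the 5, Acta1 (-1.05), Cnn2 (-0.20, -0.31 with the trend removed), Myl9 and Vcl fell and Myl6 (0.36) rose. It also occurred in 3 of 20 immediate early genes, of which Egr2 (-0.35) and Zfp36 (-0.13, -0.22 with the trend removed) fell and Srf (0.14, 0.06 with the trend removed), the gene of the factor itself, rose. The share was 15% in that list and the same in the WNT list (3 of 20). Egr2 was not called without CBL-Y371S replicate 3 or EV replicate 3 (adjusted p up to 0.0575). Zfp36 was not called without CBL-Y371S replicate 1, CBL-Y371S replicate 2, EV replicate 1 or EV replicate 2 (adjusted p up to 0.193) and by DESeq2 (adjusted p = 0.0836). Srf was not called with the trend removed (adjusted p = 0.112). In the ERK list only Dusp5 carried it, as an adjacent pair, and Dusp5 was at 339.8, 333 and 345 in EV and 558, 576 and 542 normalized counts in CBL-Y371S (0.72 ± 0.05). The same box thus stood before genes that moved in opposite directions, and the promoters of 3 contractile genes and of Dusp5 are printed for this reason, 80 bases each in the gene's direction with the box in capitals (chr2:156775268-156775347, chr14:20929148-20929227, chr10:79988509-79988588 and chr19:53529033-53529112, all plus strand). A match is a description of the letters and not a shown binding site.
Myl9: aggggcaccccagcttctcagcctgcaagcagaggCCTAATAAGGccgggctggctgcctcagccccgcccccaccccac
Vcl: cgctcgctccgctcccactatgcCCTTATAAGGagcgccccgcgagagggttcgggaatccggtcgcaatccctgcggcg
Cnn2: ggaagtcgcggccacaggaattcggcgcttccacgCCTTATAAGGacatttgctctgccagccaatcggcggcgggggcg
Dusp5: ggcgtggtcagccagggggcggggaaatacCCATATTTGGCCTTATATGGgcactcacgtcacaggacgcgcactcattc

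Adhesion receptors changed in both directions. Of 35 integrins, cadherins and tetraspanins, 18 rose and 11 fell, with a median log2 fold change of 0.12. Itga6, the laminin-binding integrin chain, was at 454, 427 and 495 in EV and 1142, 1119 and 1313 normalized counts in CBL-Y371S (1.37 ± 0.06). Itga11, a collagen-binding chain, was at 670.3, 687 and 673 in EV and 238, 226 and 207 in CBL-Y371S (-1.59 ± 0.06). Tspan33 was the lowest, at 238, 252 and 216 in EV and 64.6, 72.0 and 45.6 in CBL-Y371S (-1.96 ± 0.14). In these 3 genes the lines did not overlap, whereas the tetraspanin Cd82 overlapped at 4.13, 4.30 and 18.8 in EV and 25.8, 11.999 and 42.8 in CBL-Y371S (1.61 ± 0.49, adjusted p = 0.00916), and Cd82 was not called without CBL-Y371S replicate 3, EV replicate 1 or EV replicate 2 (adjusted p up to 0.0626) and by DESeq2 (adjusted p = 0.113). Among 22 targets of YAP and TAZ, the coactivators that respond to cell tension, 4 rose and 15 fell, with a median log2 fold change of -0.34 (4 and 14 with the trend removed, median -0.19). Dlc1, a GTPase-activating tumour suppressor, was at 888, 839.5 and 792 in EV and 379, 374 and 362 in CBL-Y371S (-1.17 ± 0.05). Crim1 was at 1923, 1859 and 1861 in EV and 1154, 1147 and 1154 in CBL-Y371S (-0.71 ± 0.03), while Tead4, a DNA-binding partner of YAP, was at 721, 640.0 and 695 in EV and 1013, 1022 and 1020.2 in CBL-Y371S (0.57 ± 0.05). Ankrd1 was at 441, 394 and 419 in EV and 531, 569 and 565 in CBL-Y371S (0.41 ± 0.06). Of the best-known targets, Ctgf rose (0.25) and Cyr61 did not pass the test (-0.04, adjusted p = 0.31, or -0.14 with the trend removed).

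Of 26 genes of the TGF-beta pathway, 5 rose and 16 fell, with a median log2 fold change of -0.22. Inhba, which encodes the activin A subunit, was at 705, 721 and 670.2 in EV and 332, 302 and 341 normalized counts in CBL-Y371S (-1.10 ± 0.06). Skil, an inhibitor of SMADs that the pathway induces, was at 1828, 1745 and 1888 in EV and 928, 864 and 897 in CBL-Y371S (-1.02 ± 0.04, or -0.67 with the trend removed). Twist2 (4666, 4734 and 4706 in EV and 7074, 7127 and 6835 in CBL-Y371S) and Twist1 (1018, 950.5 and 1032 in EV and 1344, 1346 and 1295 in CBL-Y371S), transcription factors of mesenchymal cells, were higher by 0.58 and 0.41, the latter by 0.22 with the trend removed. Among 25 genes of the BMP pathway, 8 rose and 13 fell, with a median log2 fold change of -0.26. With 1 library left out, between 6 and 8 of them rose. Bmpr2, the type II receptor, was at 999.8, 1019 and 986 in EV and 343, 364 and 383 in CBL-Y371S (-1.46 ± 0.05, or -0.97 with the trend removed). The antagonist Chrdl1 was at 33.1, 35.3 and 27.7 in EV and 12.9, 14.4 and 16.7 in CBL-Y371S (-1.07 ± 0.23). Id1, an inhibitor of bHLH factors and direct BMP target, was at 965, 915 and 954 in EV and 1639.6, 1727 and 1615 in CBL-Y371S (0.81 ± 0.04). The highest values belonged to scarce genes whose EV replicate 3 lay above the other EV libraries and within or near the range of CBL-Y371S. In these genes CBL-Y371S replicate 3 was also the highest of its line. Bmp2 was at 1.03, 1.72 and 15.8 in EV and 16.9, 14.4 and 34.4 in CBL-Y371S (2.24 ± 0.61, adjusted p = 0.004). Grem1, a BMP antagonist, was at 3.099, 0.860 and 8.91 in EV and 16.9, 5.999 and 31.6 in CBL-Y371S (1.92 ± 0.59, adjusted p = 0.00963). Bmp2 was not called by DESeq2 (adjusted p = 0.167), and Grem1 was not called without CBL-Y371S replicate 3 or EV replicate 2 (adjusted p up to 0.0742) and by DESeq2 (adjusted p = 0.0731).

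Of 32 WNT ligands, receptors and inhibitors, 9 rose and 14 fell, with a median log2 fold change of -0.14 (8 and 12 with the trend removed, median -0.09). With 1 library left out, between 7 and 11 of them rose. Lgr6 was at 24.8, 18.1 and 22.8 in EV and 87.4, 84.0 and 70.7 normalized counts in CBL-Y371S (1.84 ± 0.18). Nkd1, a feedback inhibitor, was at 1.03, 1.72 and 6.93 in EV and 10.9, 13.2 and 14.9 in CBL-Y371S (1.98 ± 0.49, adjusted p = 0.00203). Lrp6, the WNT co-receptor, was at 5859, 5717 and 5614 in EV and 3266, 3388 and 3222 in CBL-Y371S (-0.80 ± 0.03, or -0.44 with the trend removed). Rnf43, the ubiquitin ligase that removes Frizzled receptors, was at 298, 315 and 303 in EV and 140.1, 104 and 136 in CBL-Y371S (-1.27 ± 0.10). Receptors of the pathway were among the members that rose and among those that fell. Of 25 NOTCH and Hedgehog genes, 6 rose and 12 fell, with a median log2 fold change of -0.16. Gli2, a Hedgehog effector, was at 179, 195 and 198 in EV and 94.4, 90.0 and 100.4 in CBL-Y371S (-0.998 ± 0.10). The co-receptor Cdon was at 3056, 2974 and 2956 in EV and 1458, 1573 and 1508 in CBL-Y371S (-0.99 ± 0.03), while Notch4 was at 22.7, 36.1 and 29.7 in EV and 44.7, 66.0 and 56.7 in CBL-Y371S (0.90 ± 0.21, adjusted p = 0.00115). Jag2 was at 5.16, 11.2 and 8.91 in EV and 11.9, 14.4 and 21.4 in CBL-Y371S (0.86 ± 0.35, adjusted p = 0.0422). Jag2 was not called without CBL-Y371S replicate 2, CBL-Y371S replicate 3, EV replicate 1 or EV replicate 3 (adjusted p up to 0.19) and by DESeq2 (adjusted p = 0.148). Of 32 axon guidance genes, 10 rose and 14 fell, with a median log2 fold change of -0.07 (13 and 12 with the trend removed, median 0.05). Flrt3 was at 8.26, 10.3 and 14.8 in EV and 36.8, 50.4 and 35.3 in CBL-Y371S (1.80 ± 0.26). Tenm4 was at 89.9, 87.7 and 83.2 in EV and 290.2, 265 and 283 in CBL-Y371S, and the semaphorin Sema3b was at 215, 206 and 198 in EV and 113, 125 and 111 in CBL-Y371S (-0.82 ± 0.09) with its receptor subunit gene Nrp1 at 4487, 4446 and 4316 in EV and 2587, 2672 and 2517 in CBL-Y371S (-0.77 ± 0.03, or -0.43 with the trend removed).

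Genes of DNA replication and nucleotide synthesis rose almost without exception. Of 47 tested, 43 rose and 1 fell, with a median log2 fold change of 0.45. Tk1, the thymidine kinase of dividing cells, was at 1291, 1351 and 1250.2 in EV and 1991, 2033 and 2066 normalized counts in CBL-Y371S (0.65 ± 0.03). Pold1, the catalytic subunit of DNA polymerase delta, was at 1671, 1738 and 1593 in EV and 2575, 2709 and 2506 in CBL-Y371S (0.64 ± 0.04). The minichromosome maintenance genes Mcm5, Mcm6 and Mcm7, subunits of the replicative helicase, stood at log2 fold changes of 0.50, 0.42 and 0.57, and Mcm7 was at 3401, 3539.5 and 3299 in EV and 5049, 5153 and 4957 in CBL-Y371S. None of these overlapped between lines. Rfc1, the large subunit of the clamp loader, was the member called lower, by a small margin, at 3071, 3043 and 3075 in EV and 2950.4, 2962 and 2899.7 in CBL-Y371S (-0.06 ± 0.03, or 0.07 with the trend removed, adjusted p = 0.0478), and it was not called without CBL-Y371S replicate 1, CBL-Y371S replicate 3, EV replicate 1, EV replicate 2 or EV replicate 3 (adjusted p up to 0.153) and by DESeq2 (adjusted p = 0.125).

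E2F factors drive many of these genes in S phase, so the same promoters were searched for the E2F site, spelled TTTCCCGC or TTTGGCGC on either strand, which do not overlap the CArG box in letters. The site occurred in 6 of 38 replication genes with a promoter (15.8%), against 2.83% of tested genes and 1.51% of all. The 6 were Mcm5, Mcm6, Mcm7, Cdc6 (0.49), Gins3 (0.32) and Pola1 (0.10, adjusted p = 0.0651, or 0.42 with the trend removed). The site was not limited to this list or to rises. It stood in 4 of 15 G1 genes (26.7%), of which E2f3 (-0.21) fell, and also before Zfp871 (-1.92), Irs2 (-0.76) and Lrp1 (-0.65, -0.41 with the trend removed), which fell. The promoters of the first 4 replication genes are printed as examples of the site, with the site in capitals and Mcm6 holding it at 2 places (chr8:75109324-75109403 and chr11:98907977-98908056, plus strand, chr1:128359741-128359820 and chr5:138172005-138172084, minus strand).
Mcm5: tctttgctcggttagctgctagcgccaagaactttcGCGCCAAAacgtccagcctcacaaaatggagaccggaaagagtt
Mcm6: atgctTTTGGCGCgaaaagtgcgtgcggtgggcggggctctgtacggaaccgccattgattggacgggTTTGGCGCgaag
Mcm7: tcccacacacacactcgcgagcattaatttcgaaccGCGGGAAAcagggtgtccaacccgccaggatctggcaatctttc
Cdc6: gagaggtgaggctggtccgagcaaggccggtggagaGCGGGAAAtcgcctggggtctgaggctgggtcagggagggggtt

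Genes of mitosis and the spindle were also mostly higher. Of 52 tested, 37 rose and 11 fell, with a median log2 fold change of 0.19 (49 and 2 with the trend removed, median 0.31). Birc5, which encodes survivin of the chromosomal passenger complex, was at 2069.8, 2125 and 2071 in EV and 3079, 3358 and 3084 normalized counts in CBL-Y371S (0.60 ± 0.03). Ube2c, the ubiquitin-conjugating enzyme of the anaphase-promoting complex, was at 1938, 1870.0 and 1823 in EV and 2653, 2689 and 2551 in CBL-Y371S (0.49 ± 0.03). The 11 members that fell had summed exon lengths of 5210 to 15433 bases. Aspm, of the spindle pole, was at 3866, 3923 and 3912 in EV and 2739.7, 2745 and 2786 in CBL-Y371S (-0.50 ± 0.02, or -0.16 with the trend removed). The condensin subunit Smc2 was at 2494, 2372 and 2608 in EV and 1986, 1935 and 1905 in CBL-Y371S (-0.36 ± 0.03, or -0.14 with the trend removed), and 9 of the 11 were no longer called lower with the trend removed. Mki67, the common proliferation marker, had a log2 fold change of -0.18 as tested and 0.10 with the trend removed. Of 20 G1 cyclins, kinases and inhibitors, 11 rose and 8 fell, with a median log2 fold change of 0.15. Beside Ccnd1, E2f2 was at 119.8, 103 and 119.8 in EV and 175, 152 and 167 in CBL-Y371S (0.53 ± 0.10). The retinoblastoma gene Rb1, a brake on G1 phase, was lower, at 399.7, 345 and 439.5 in EV and 236, 233 and 257 in CBL-Y371S (-0.70 ± 0.08). The kinase inhibitor Cdkn1b was at 3243, 3136 and 3227 in EV and 2025, 2027 and 2029 in CBL-Y371S (-0.66 ± 0.03). Cdkn1a, a p53 target and inhibitor of the same kinases, was instead higher, at 4999.97, 5136 and 5115 in EV and 7009, 6714 and 7039 in CBL-Y371S (0.44 ± 0.02). Of 28 genes of p53 and its targets, 13 rose and 7 fell, with a median log2 fold change of 0.05 (15 and 4 with the trend removed, median 0.13). Gtse1, a regulator of p53, was at 1583, 1632 and 1621 in EV and 2345, 2371 and 2411 in CBL-Y371S (0.56 ± 0.03). The p53 inhibitor Mdm4 was at 1883, 1932 and 1833 in EV and 925, 981 and 1002 in CBL-Y371S (-0.96 ± 0.04, or -0.55 with the trend removed). Trp53inp1 was at 2156, 2058 and 2178 in EV and 1259, 1269 and 1336 in CBL-Y371S (-0.73 ± 0.03, or -0.44 with the trend removed). Gdf15 was low throughout (11.4, 6.02 and 7.92 in EV and 16.9, 14.4 and 14.9 in CBL-Y371S) (0.83 ± 0.32, adjusted p = 0.0328), and Gdf15 was not called without CBL-Y371S replicate 1, CBL-Y371S replicate 3, EV replicate 2 or EV replicate 3 (adjusted p up to 0.121), by DESeq2 (adjusted p = 0.155) and with the trend removed (adjusted p = 0.0862).

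The protein synthesis machinery was higher in the mutant line across several complexes. Of 85 cytosolic ribosomal proteins, 77 rose and 0 fell, with a median log2 fold change of 0.37. Without CBL-Y371S replicate 2 the count was also 77. Rpl3, a core protein of the large subunit, was at 1694, 1446 and 1395 in EV and 2139, 2802 and 2042 in CBL-Y371S (0.61 ± 0.09). The 3 members with the largest log2 fold changes were highest in CBL-Y371S replicate 2. Rps28 was at 339, 313 and 297 in EV and 401, 2016 and 363 in CBL-Y371S (1.07 ± 0.40, adjusted p = 0.0286). Rps13 was at 87.8, 98.1 and 89.1 in EV and 123, 1043 and 93.9 in CBL-Y371S (1.32 ± 0.55, adjusted p = 0.0472). Rps12 was at 592, 579.7 and 1012 in EV and 1414, 3499 and 719 in CBL-Y371S (1.12 ± 0.35, adjusted p = 0.0114). Of the other 2 CBL-Y371S libraries, 1 lay within the EV range and 1 above it, for Rps13 and for Rps12 alike. Rps28 was not called without EV replicate 1, EV replicate 2 or EV replicate 3 (adjusted p up to 0.0819), by DESeq2 (adjusted p = 0.0894) and with the trend removed (adjusted p = 0.052). Rps13 was not called without CBL-Y371S replicate 2, EV replicate 1, EV replicate 2 or EV replicate 3 (adjusted p up to 0.159) and with the trend removed (adjusted p = 0.0543), and Rps12 was not called without EV replicate 1 or EV replicate 2 (adjusted p up to 0.0637) and by DESeq2 (adjusted p = 0.0907). Ribosomal protein genes have many processed pseudogenes with which reads can be exchanged, so single members are uncertain. Of 1535 processed pseudogenes tested, 468 were called higher, near the share over all genes (30.9%). Lower calls numbered 144, a smaller share than the 31.2% over all genes. Whether reads were exchanged was not tested. Of 77 mitochondrial ribosomal proteins, 73 rose and 0 fell, with a median log2 fold change of 0.33, with Mrps6 at 2363, 2343 and 2383 in EV and 3667, 3946 and 3785 in CBL-Y371S (0.68 ± 0.03). Mrpl12 was at 1504, 1583 and 1489 in EV and 2286, 2281 and 2239 in CBL-Y371S (0.57 ± 0.03). Of 65 translation factors, 39 rose and 13 fell, with a median log2 fold change of 0.18 (45 and 6 with the trend removed, median 0.22). Eif5a was at 14026, 14369 and 13963 in EV and 20371, 21492 and 19913 in CBL-Y371S (0.54 ± 0.03). Eef1d, an elongation factor subunit, was at 4336, 4429 and 4425 in EV and 6234, 6612 and 5965 in CBL-Y371S (0.51 ± 0.03). Eif2ak4, the kinase GCN2 that halts initiation when amino acids are short, was at 2479.8, 2491 and 2487 in EV and 1668, 1769 and 1682 in CBL-Y371S (-0.54 ± 0.03). Eif5a2, a relative of Eif5a, was at 368, 334 and 361 in EV and 265, 262 and 256 in CBL-Y371S (-0.44 ± 0.07, or -0.22 with the trend removed).

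Respiration and protein degradation genes moved in the same direction. Of 82 nuclear genes for the respiratory chain and ATP synthase, 74 rose and 0 fell, with a median log2 fold change of 0.32. Cycs, which encodes cytochrome c, was at 719, 686 and 678 in EV and 1025, 975 and 987 normalized counts in CBL-Y371S (0.52 ± 0.04). The cytochrome oxidase subunit Cox5b was at 249.9, 261 and 261 in EV and 354, 404 and 359 in CBL-Y371S (0.53 ± 0.07, or 0.27 with the trend removed). Both symbols also belong to a second identifier with its own values. The mitochondrial genome itself did not follow as a whole. Of 10 mitochondrially encoded transcripts, 4 rose and 2 fell, with a median log2 fold change of 0.08 (5 and 1 with the trend removed, median 0.18). ND6 was at 12764, 11682 and 13221 in EV and 15005, 15127 and 15778 in CBL-Y371S (0.29 ± 0.03). ND1 was at 99951, 94524 and 103873 in EV and 111725, 112800.2 and 114862 in CBL-Y371S (0.19 ± 0.03). COX1 was at 187359, 181458 and 186800.0 in EV and 166422, 168987 and 169442 in CBL-Y371S (-0.14 ± 0.02, or -0.06 with the trend removed). ND5 was at 47442, 43769 and 47219 in EV and 42664, 39462 and 43666 in CBL-Y371S (-0.14 ± 0.03, or 0.01 with the trend removed, adjusted p = 0.00194), and ND5 was not called with the trend removed (adjusted p = 0.903). Of 36 proteasome subunits, 32 rose and 0 fell, with a median log2 fold change of 0.30, with Psmb6 at 2737, 2790.3 and 2782 in EV and 3741, 3892 and 3761 in CBL-Y371S (0.46 ± 0.03). Psma6 was at 3225, 3290.1 and 3351 in EV and 4289.9, 4579.9 and 4438 in CBL-Y371S (0.43 ± 0.03).

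Chromatin modifiers and zinc-finger genes, by contrast, were mostly lower. Of 71 chromatin modifiers (median exon length 10490 bases), 9 rose and 57 fell, with a median log2 fold change of -0.36 (11 and 45 with the trend removed, median -0.14). Hdac4, a class IIa histone deacetylase, was at 1921, 1973 and 1883 in EV and 784, 796 and 764 normalized counts in CBL-Y371S (-1.30 ± 0.04). Tet2, which oxidizes methylcytosine and is mutated in myeloid neoplasms, was at 532, 507 and 508 in EV and 240.5, 230.4 and 227 in CBL-Y371S (-1.14 ± 0.06, or -0.74 with the trend removed). The histone methyltransferase Kmt2c (-1.08, -0.66 with the trend removed) and the chromatin remodeller Atrx (-0.91, -0.36 with the trend removed) fell too. Kat2a, a histone acetyltransferase, was at 2605, 2622 and 2551 in EV and 3436, 3489 and 3348 in CBL-Y371S (0.40 ± 0.03). The maintenance DNA methyltransferase Dnmt1 was at 6125, 6098 and 5829 in EV and 7455, 7395 and 7394 in CBL-Y371S (0.30 ± 0.02). The 4 genes were apart between the lines. Of 339 genes named Zfp, 29 rose and 209 fell, with a median log2 fold change of -0.29 (40 and 148 with the trend removed, median -0.15). Zfp871 was at 1109, 1029.6 and 1034 in EV and 303, 279.6 and 254 in CBL-Y371S (-1.92 ± 0.06). Zfp600, near the filter, was at 14.5, 12.9 and 16.8 in EV and 2.98, 9.60 and 2.79 in CBL-Y371S (-1.53 ± 0.42, adjusted p = 0.00438), while Zfp593 was at 73.3, 84.3 and 76.2 in EV and 122, 126 and 124 in CBL-Y371S (0.66 ± 0.11). Zfp385a was at 1098, 1043 and 1079 in EV and 1554, 1499.8 and 1542 in CBL-Y371S (0.51 ± 0.03).

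Antioxidant genes were higher. Of 41 genes of the NRF2 and glutathione systems, 33 rose and 3 fell, with a median log2 fold change of 0.25. The glutathione transferases Mgst3 and Gstm1 were at 499.9, 498 and 495 in EV and 904, 1093 and 919 normalized counts in CBL-Y371S (0.96 ± 0.06) and at 694, 708 and 721 in EV and 1233, 1267 and 1242 in CBL-Y371S (0.82 ± 0.04). Nqo1, the quinone reductase that serves as an NRF2 reporter gene, was at 1407, 1395 and 1517 in EV and 2411, 2342 and 2506 in CBL-Y371S (0.75 ± 0.04). All 3 were without overlap. Gstt1 (148, 129 and 139.6 in EV and 72.5, 74.4 and 109.7 in CBL-Y371S) (-0.72 ± 0.14) and Mgst1 (971, 906 and 981 in EV and 682, 710.3 and 676 in CBL-Y371S) (-0.47 ± 0.04) were lower, and Hmox1, another NRF2 target, was slightly lower (-0.10, -0.23 with the trend removed). Of 25 genes of iron uptake and storage, 9 rose and 10 fell, with a median log2 fold change of 0.01 (13 and 6 with the trend removed, median 0.05). Scara5 and Ltf led the rises, and the ferritin chains Fth1, at 31688, 32267 and 32282 in EV and 47078, 49977 and 46379.8 in CBL-Y371S (0.58 ± 0.02), and Ftl1 (0.46, 0.26 with the trend removed) rose with them, while the transferrin receptor Tfrc did not pass the test (0.01, adjusted p = 0.691, or 0.27 with the trend removed). Ncoa4, the receptor for ferritin autophagy, was at 231, 206 and 229 in EV and 130.2, 152 and 133 in CBL-Y371S (-0.68 ± 0.09, or -0.40 with the trend removed). Lrp1, a scavenger receptor that also takes up haem, was at 67617, 69426 and 64405 in EV and 43655, 42429.5 and 41919.6 in CBL-Y371S (-0.65 ± 0.03, or -0.41 with the trend removed).

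Of 30 heat shock and chaperone genes, 21 rose and 3 fell, with a median log2 fold change of 0.23. Cryab, a small heat shock protein, was at 2515, 2593 and 2568 in EV and 3787, 3849 and 3774 normalized counts in CBL-Y371S (0.57 ± 0.03). The mitochondrial chaperonin Hspe1 was at 1692, 1573 and 1632 in EV and 2370.0, 2268 and 2242 in CBL-Y371S (0.49 ± 0.03). Hspa2 (-0.26) and Hsph1 (-0.21, -0.03 with the trend removed) fell, and Hsph1 was not called with the trend removed (adjusted p = 0.188). In the secretory pathway the balance was the opposite: of 36 genes of the unfolded protein response, 8 rose and 20 fell, with a median log2 fold change of -0.09 (7 and 14 with the trend removed, median -0.05). Sel1l, of the degradation machinery of the endoplasmic reticulum, was at 4252, 4229 and 4299 in EV and 2961, 2926 and 2912 in CBL-Y371S (-0.54 ± 0.02, or -0.32 with the trend removed). The stress sensor Atf6 was at 2933, 2998 and 2999 in EV and 2146, 2077 and 2083 in CBL-Y371S (-0.50 ± 0.03, or -0.24 with the trend removed), while the translocon-associated Ssr2 (0.22, 0.05 with the trend removed) and Ssr4 (0.15, 0.10 with the trend removed) rose slightly. Of 39 genes of the amino acid response, 16 rose and 16 fell, with a median log2 fold change of 0.01 (16 and 16 with the trend removed, median 0.04). The glutamine transporter Slc38a2 was at 43428, 42129 and 43316 in EV and 24871, 25143 and 25191 in CBL-Y371S (-0.78 ± 0.02, or -0.51 with the trend removed). The serine pathway enzyme gene Shmt2 was at 5088, 5128 and 5043 in EV and 6395, 6518 and 6539 in CBL-Y371S (0.35 ± 0.02, or 0.22 with the trend removed). Phgdh was at 1092, 1103 and 1098 in EV and 1389, 1416 and 1364 in CBL-Y371S (0.34 ± 0.03, or 0.19 with the trend removed).

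Of 36 genes of glycolysis and the hypoxia response, 16 rose and 10 fell, with a median log2 fold change of 0.07 (18 and 6 with the trend removed, median 0.10). Eno1, which encodes enolase, was at 2738, 2603 and 2519 in EV and 3996, 4835 and 4318 normalized counts in CBL-Y371S (0.74 ± 0.05). Ldha, the lactate dehydrogenase chain, was at 9723, 9779.9 and 9716 in EV and 13749, 14166 and 13827 in CBL-Y371S (0.51 ± 0.02). Ndrg1, a hypoxia-induced gene, was at 862, 847 and 914 in EV and 1232, 1237 and 1341 in CBL-Y371S (0.54 ± 0.04). Pfkfb3, which makes the activator of phosphofructokinase, was at 1223, 1215 and 1211 in EV and 421, 386 and 405 in CBL-Y371S (-1.59 ± 0.05). Hif1a, the oxygen-regulated factor, was at 7430.2, 7273 and 7393 in EV and 4627, 4671 and 4691 in CBL-Y371S (-0.66 ± 0.02). Eno1 and Ldha lay above EV in every library and Pfkfb3 and Hif1a below. Of 35 genes of cholesterol and fatty acid synthesis, 13 rose and 12 fell, with a median log2 fold change of -0.01. Fdps was at 1550.3, 1517 and 1536 in EV and 2008, 2094 and 1940.0 in CBL-Y371S (0.39 ± 0.03). Mvk was at 2729, 2765 and 2694 in EV and 3476, 3689.6 and 3361 in CBL-Y371S (0.36 ± 0.03, or 0.22 with the trend removed), both enzymes of the mevalonate route, while the sterol enzyme gene Hsd17b7 was lower, at 3156, 3025 and 3187 in EV and 2304, 2180.1 and 2267 in CBL-Y371S (-0.47 ± 0.03). Cyp51 was at 17008, 16602 and 17215 in EV and 12945, 13666 and 13066 in CBL-Y371S (-0.36 ± 0.02) and lower too. Of 46 lysosome and autophagy genes, 5 rose and 21 fell, with a median log2 fold change of -0.04 (6 and 27 with the trend removed, median -0.11). The count that rose was 2 or 3 without CBL-Y371S replicate 1, EV replicate 2 or EV replicate 3. The protease gene Ctsl was at 21507, 21380.0 and 21571 in EV and 32389, 33099 and 32171 in CBL-Y371S (0.60 ± 0.02). The membrane protein gene Lamp2 was at 11192, 10625 and 11091 in EV and 6985, 6963 and 7087 in CBL-Y371S (-0.65 ± 0.02, or -0.25 with the trend removed). The proton pump subunit Atp6v1a (-0.52) fell, and Glb1 rose by 0.09 (0.05 with the trend removed), though it was not called without CBL-Y371S replicate 1, CBL-Y371S replicate 2, EV replicate 1, EV replicate 2 or EV replicate 3 (adjusted p up to 0.106), by DESeq2 (adjusted p = 0.15) and with the trend removed (adjusted p = 0.256).

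Of 31 chemokine and inflammation genes, 12 rose and 13 fell, with a median log2 fold change of -0.05 (11 and 13 with the trend removed, median -0.02). With 1 library left out, between 10 and 14 of them rose. Csf2rb, the shared chain of the interleukin 3, interleukin 5 and GM-CSF receptors, was at 459, 443 and 436 in EV and 146, 146 and 133 normalized counts in CBL-Y371S (-1.65 ± 0.07). Tnfrsf11b, the decoy receptor osteoprotegerin, was at 1467, 1384 and 1466 in EV and 696, 689 and 702.1 in CBL-Y371S (-1.05 ± 0.04). The members with the largest rises were scarce, with the adhesion molecule Icam1 at 5.16, 2.58 and 2.97 in EV and 11.9, 14.4 and 25.1 in CBL-Y371S (1.96 ± 0.40). The chemokine Ccl5 was at 2.07, 3.44 and 3.96 in EV and 10.9, 11.999 and 10.2 in CBL-Y371S (1.56 ± 0.40, adjusted p = 0.00265). Of 25 interferon response genes, 3 rose and 10 fell, with a median log2 fold change of -0.13 (3 and 9 with the trend removed, median -0.06). The count that rose was 1 without EV replicate 1. Usp18, which removes ISG15 from proteins, was at 69.2, 70.5 and 80.2 in EV and 35.8, 38.4 and 27.9 in CBL-Y371S (-1.09 ± 0.17). The guanylate-binding protein genes moved in both directions, with Gbp7 at 27.9, 29.2 and 34.6 in EV and 7.95, 14.4 and 28.8 in CBL-Y371S (-0.97 ± 0.34, adjusted p = 0.0192). Gbp2 was at 367, 392.2 and 407 in EV and 435, 459.5 and 424 in CBL-Y371S (0.18 ± 0.06, adjusted p = 0.0167), and Ifi203 was at 227, 212 and 235 in EV and 273, 253 and 250.2 in CBL-Y371S (0.21 ± 0.08, or 0.51 with the trend removed, adjusted p = 0.0276). Gbp7 was not called without CBL-Y371S replicate 1 or EV replicate 3 (adjusted p up to 0.119), by DESeq2 (adjusted p = 0.0804) and with the trend removed (adjusted p = 0.0603). Gbp2 was not called without CBL-Y371S replicate 2 or EV replicate 1 (adjusted p up to 0.0891) and by DESeq2 (adjusted p = 0.0985), and Ifi203 was not called without CBL-Y371S replicate 1, EV replicate 1 or EV replicate 2 (adjusted p up to 0.111) and by DESeq2 (adjusted p = 0.132).

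Of 37 G-protein coupled receptors and RGS genes, 13 rose and 14 fell, with a median log2 fold change of -0.08. Agtr2 and Gpr149 were the highest members, Rgs16 (0.94), a brake on G-protein signals, rose, and the orphan receptor gene Gpr176 was the lowest, at 3094, 3308 and 3113 in EV and 1359, 1416 and 1402 normalized counts in CBL-Y371S (-1.19 ± 0.03). The chemokine receptor Ccr7 was at 175, 185 and 159 in EV and 76.5, 109 and 79.0 in CBL-Y371S (-0.98 ± 0.13). Of 18 genes of retinoid handling, 7 rose and 4 fell, with a median log2 fold change of 0.01 (6 and 7 with the trend removed, median -0.01). Crabp1, the cellular retinoic acid binding protein, was at 2942, 2978 and 2879 in EV and 6039, 6348 and 5978 in CBL-Y371S (1.06 ± 0.03). The retinaldehyde dehydrogenase Aldh1a1 was at 197, 190.1 and 224 in EV and 154, 144 and 172 in CBL-Y371S (-0.38 ± 0.10, adjusted p = 0.00266). Rarres2, a retinoid-induced gene that encodes chemerin, overlapped at 171, 194 and 194 in EV and 131, 174 and 131 in CBL-Y371S (-0.37 ± 0.11, adjusted p = 0.00907). Aldh1a2 overlapped too, at 2.07, 7.74 and 21.8 in EV and 23.8, 11.999 and 35.3 in CBL-Y371S (1.42 ± 0.54, adjusted p = 0.0318), and it was not called without CBL-Y371S replicate 1, CBL-Y371S replicate 3, EV replicate 1 or EV replicate 2 (adjusted p up to 0.209) and by DESeq2 (adjusted p = 0.288).

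Of 23 oncofetal and imprinted growth genes, 5 rose and 11 fell, with a median log2 fold change of -0.24 (7 and 8 with the trend removed, median -0.02). The chromatin proteins of the HMGA family, high in embryos and tumours, rose: Hmga1 was at 1061, 1133 and 1103 in EV and 2576, 2858 and 2491 normalized counts in CBL-Y371S (1.26 ± 0.04). Hmga2 was at 4750.0, 4662 and 4806 in EV and 9285, 9358 and 9462 in CBL-Y371S (0.98 ± 0.02). H19, the imprinted neighbour of Igf2, was low in both lines (9.30, 6.88 and 0.990 in EV and 21.9, 13.2 and 13.9 in CBL-Y371S) (1.64 ± 0.51, adjusted p = 0.00969), and it was not called without CBL-Y371S replicate 1 (adjusted p up to 0.0593). Beside Igf2 the lowest member was Nnat, at 40.3, 49.9 and 57.4 in EV and 18.9, 24.0 and 27.9 in CBL-Y371S (-1.03 ± 0.21). Of 37 homeobox and limb patterning factors, 7 rose and 14 fell, with a median log2 fold change of -0.05 (8 and 15 with the trend removed, median -0.12). Foxc2 was at 301, 316 and 309 in EV and 560.5, 548 and 508 in CBL-Y371S (0.80 ± 0.06). Foxl1 was at 87.8, 80.9 and 95.03 in EV and 131, 138 and 165 in CBL-Y371S (0.71 ± 0.12), both forkhead factors of mesenchyme, and another, Foxf1, was at 244, 291 and 251 in EV and 160.0, 163 and 166 in CBL-Y371S (-0.68 ± 0.09). Shox2, a homeobox gene of the limb, was at 1460.4, 1412 and 1458 in EV and 969, 1027 and 969 in CBL-Y371S (-0.55 ± 0.04).

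Markers were read to check the cell type. Of 11 fibroblast markers above the filter, 2 rose and 9 fell, and the highest CBL-Y371S library sum, 864958 normalized counts, lay below the lowest of EV, 1052860.0. Vim (0.54), which encodes vimentin, and S100a4 (0.55) were the members that rose. In such bulk samples fewer cells of a type and less RNA per cell cannot be told apart. Epithelial markers summed to 111 to 243 in EV and 187 to 414 in CBL-Y371S over 11 genes, of which 5 passed the filter and 3 were called higher. Krt18 was at 13.4, 11.2 and 39.6 in EV and 65.6, 21.6 and 174 in CBL-Y371S (1.74 ± 0.53, adjusted p = 0.00944), and Cdh1 (0.69) and Krt14 (0.64) were the others. Krt18 was not called without CBL-Y371S replicate 3 or EV replicate 2 (adjusted p up to 0.0679) and by DESeq2 (adjusted p = 0.0645). Cdh1 was not called without CBL-Y371S replicate 3 or EV replicate 2 (adjusted p up to 0.128) and by DESeq2 (adjusted p = 0.0867), so that 1 marker remained called without either library. Blood cell markers summed to 136 to 171 and 151 to 245 over 12 genes, of which 2 passed the filter. Their median log2 fold change was -0.05 (-0.12 with the trend removed). Cd68 (0.33, 0.18 with the trend removed) was called higher and the other, Csf1r, was not called. Without CBL-Y371S replicate 3, however, Csf1r was called lower. Cd68 was not called without CBL-Y371S replicate 3, EV replicate 1 or EV replicate 3 (adjusted p up to 0.168), by DESeq2 (adjusted p = 0.127) and with the trend removed (adjusted p = 0.234). Endothelial markers summed to 48.5 to 59.4 and 50.4 to 74.4 over 10 genes, of which 3 passed the filter and 1, Cdh5 (0.94), was called higher. Cdh5 was not called without CBL-Y371S replicate 3 or EV replicate 2 (adjusted p up to 0.092) and by DESeq2 (adjusted p = 0.101). Adipocyte markers summed to 520.4 to 534 and 346 to 379.6, with Lep at 0 and Fabp4 (-0.72), Lpl (-0.67, -0.34 with the trend removed) and Plin4 (-0.41) lower. Skeletal muscle markers summed to 121 to 239 and 124 to 134, with Myod1 and Myf5 at 0 in all 6 libraries.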

How the data were processed

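The deposited table for this comparison gives 1 value per gene and library, a count of reads per gene (counted with HTSeq 0.9.1 after alignment with TopHat2 2.0.13 and Bowtie2 2.2.4.0 and checks with FastQC 0.10.1, per the labels and the study's methods) that the authors had divided by DESeq2 size factors, and these are signal values without a log scale. Libraries were made from TRIzol-extracted RNA with the TruSeq RNA v2 kit, which does not mark strand, and read in pairs of 36 cycles, and the DESeq2 version and the counting annotation are not given in the sources used here. The columns of the authors' own comparison, a mean (score), a log2 fold change, a p-value and other descriptors, were deposited beside them and were not used.

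Genes averaging 10 or more in either line were tested with limma 3.58.1 (trend and empirical Bayes) on log2(value + 1), a scale that understates changes of low genes, with Benjamini-Hochberg adjustment at 0.05 over 15150 genes, in R 4.3.3. All values were whole multiples of what 1 read is worth (100% within 1e-06 of a whole read), so reads were recovered and also tested with edgeR 4.0.16 (quasi-likelihood, TMM) and DESeq2 1.42.0. Further alternatives were TMM-scaled values, pseudocounts of 0.5 and 5, no filter or a filter at 50, all 12 libraries in 1 fit, each library left out, a replicate block, fold thresholds and removal of a smooth trend over exon length and GC content (natural splines with 5 degrees of freedom, GENCODE M21). The members of the comparison and the gene lists were chosen with earlier results of these data known. Named genes were the 15 highest and 15 lowest called genes averaging 50 or more in either line and no overlap between lines, leaving out provisional names, the 2 highest and 2 lowest called members of each list, and genes of the study's own question. A few genes and 1 gene list that these rules cover are not reported here. In simulated data with 200 changed genes the limma step recovered 80% of 1.25-fold, 84% of 1.5-fold, 90% of 2-fold and 100% of 4-fold changes, with 8 false among 185 calls. The simulation changed far fewer genes than were called here, none of them near the filter, and held no length or GC trend. Its shares therefore do not carry over to this comparison. Promoters came from RefSeq (GRCm38.p6) and pseudogenes were aligned to Cbl with BLAST+ 2.17.0. Intervals and the limit of 3 reads that a count of 0 allows cover counting error only. The intervals are for genes picked by the same counts and test nothing.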

Additional observations from a re-analysis of the deposited data

How the results depend on the processing

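The 9415 calls (4687 up, 4728 down) were 9457 with edgeR, 8008 with DESeq2, 9416 with TMM-scaled values, 9331 of 24998 genes without the filter, 8935 of 12348 with a filter at 50, 9182 with all 12 libraries in 1 fit and 8684 to 9194 with a library left out. A fold of at least 1.5 left 1761 calls (470 up, 1291 down) and a fold of at least 2 left 512 (159 up, 353 down). Removing the length and GC trend gave 8672 (4906 up, 3766 down), or 8764 with the replicate block as well. Over 11253 of the more abundant genes, deviations of same-numbered libraries correlated at -0.048, -0.011 and 0.086. Those of differently numbered libraries correlated at -0.074 to 0.088, so no pairing by replicate number was seen in these genes. The check left out scarce genes such as Ido1 and Igfbp5, where replicate 3 was the highest of both lines. It therefore cannot decide whether libraries were paired in such genes. The replicate block gave 9423 calls. The log2 fold changes of Spred1 (0.18), Rfc1 (0.073), ND5 (0.0052) and Cblb (0.10) were above 0 with the trend removed, with or without the block, and below 0 as tested. Those of Cd2ap (0.15), Mki67 (0.10) and Met (0.05) also turned from below to above 0 with the trend removed, and the cause was not tested. With a library left out the log2 fold change of Col9a1 ranged from 0.0 to 2.79, the lowest without CBL-Y371S replicate 2, which holds its reads. At a mean near 10 normalized counts, changes of low genes are limited by depth.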
